A study of Mus musculus with 2 samples.

Results

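The 9 noncoding RNAs described here lack a poly(A) tail, stay largely in the nucleus, or are spliced RNAs that host small RNAs. They are the RNA polymerase III products Rpph1 and Rmrp, the intronic small nucleolar RNA Snora81, the nuclear-retained long RNAs Malat1, Neat1 and Kcnq1ot1, and the spliced small RNA hosts Gas5, Snhg12 and Snhg1. They were taken by gene symbol, 9 of the 15574 genes listed in either library, and each of the 9 was listed in both. The group was picked after the ratio of Rpph1 between the libraries had been seen, so the ratios of its members are given as a description and no test was made of them.

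The study holds 2 RNA-seq libraries, 1 per group, both of mouse Th17 cells on a C57BL/6 background. Th17 cells are helper T cells that make interleukin 17. Both groups were made from naive T cells grown for 6 days with IL-6, TGFb, IL-1b and IL-23 and then stimulated for 4 hours on plate-bound CD3 antibody. One library is labelled CREB KO and the other wildtype. The labels used here name neither the allele nor what deleted it, and they do not say how many mice stand behind a library. RNA was extracted with TRIZOL, and messenger RNA was enriched with an oligo-dT bead kit before library construction. The comparison asks how the level of each RNA differed between the 2 libraries.

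The libraries held 23938112 counted reads (labelled knockout) and 26525471 (wildtype). Creb1, which encodes CREB, had 25 and 13 reads, a ratio of 2.08 (95% counting interval 1.04 to 4.51), so the targeted gene was not lower in the library that should lack it. Those reads could lie outside a deleted part, which the labels used here do not give, and that library is called the library labelled knockout throughout. T cell markers were present at like levels, with 4 of 5 listed and summed levels of 1812 and 1840 counts per 1000000 reads (CPM, after library scaling). All 5 Th17 markers were listed, with summed levels of 974 and 2162 CPM. Of 11 markers of other cell types 5 were listed, with summed levels of 19.1 and 19.2 CPM, 3 of them at a mean of 1 CPM or more. In bulk libraries, fewer cells of a type and less RNA per cell cannot be told apart. With 1 library per group there is no spread between replicates, so each interval covers counting error only and no p-value can be given.

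RNase P and RNase MRP are related enzymes built around an RNA. RNase P, whose RNA is Rpph1, trims the leader from transfer RNA precursors, and RNase MRP, whose RNA is Rmrp, cuts the ribosomal RNA precursor. RNA polymerase III makes both RNAs, and they do not receive the poly(A) tail of messenger RNAs. Malat1 and Neat1 are RNA polymerase II transcripts that stay in nuclear speckles and paraspeckles. RNase P also cuts the main 3′ end of Malat1 and the end of the long form of Neat1, just after an A-rich tract. Kcnq1ot1 is a long unspliced antisense RNA of an imprinted domain. Gas5, Snhg12 and Snhg1 are spliced RNAs whose introns carry small nucleolar RNAs, the guides of ribosomal RNA modification, and their mature forms are kept low by nonsense-mediated decay.

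Sequences of the 3 short RNAs are printed because their reads can be shared with an overlapping gene. Rpph1 lies at chr14:50807449-50807767 (GRCm38, minus strand) and is 319 bases long. Its bases 36 to 268, in capitals, are also an exon of a Ccnb1ip1 transcript on the same strand, and the first 300 bases are shown. Rmrp lies at chr4:43492788-43493058 (minus strand) and is 271 bases long. Its bases 36 to 159, in capitals, lie opposite an exon of a Ccdc107 transcript on the other strand. Snora81 lies at chr16:23110756-23110933 (plus strand), is 178 bases long and falls wholly inside a retained intron of Eif4a2. Its capitals mark the ATA before the last 3 bases, where H/ACA small nucleolar RNAs carry their ACA box. The sequences are from GENCODE transcripts.
Rpph1: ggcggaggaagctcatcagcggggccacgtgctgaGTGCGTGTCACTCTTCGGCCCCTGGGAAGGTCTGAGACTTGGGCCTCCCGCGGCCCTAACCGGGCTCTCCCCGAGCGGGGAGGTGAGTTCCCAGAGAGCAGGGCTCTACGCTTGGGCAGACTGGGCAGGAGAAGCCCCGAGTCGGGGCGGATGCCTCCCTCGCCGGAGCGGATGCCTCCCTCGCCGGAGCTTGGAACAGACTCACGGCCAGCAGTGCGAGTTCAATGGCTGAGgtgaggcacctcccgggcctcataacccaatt
Rmrp: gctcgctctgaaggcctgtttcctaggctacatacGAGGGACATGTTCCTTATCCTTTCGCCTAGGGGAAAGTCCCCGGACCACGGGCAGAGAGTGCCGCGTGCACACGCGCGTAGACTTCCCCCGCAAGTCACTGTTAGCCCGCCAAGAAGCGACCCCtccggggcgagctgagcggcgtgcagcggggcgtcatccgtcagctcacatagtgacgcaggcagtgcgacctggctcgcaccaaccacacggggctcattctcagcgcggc
Snora81: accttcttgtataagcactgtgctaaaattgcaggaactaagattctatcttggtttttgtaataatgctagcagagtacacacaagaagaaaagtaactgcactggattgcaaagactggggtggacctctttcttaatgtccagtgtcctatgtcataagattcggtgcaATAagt

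Rpph1 and Rmrp were both much higher in the library labelled knockout, and the other 7 RNAs were within 1.5-fold between the libraries. Rpph1 was counted 310 times in the library labelled knockout against 36 in wildtype (this order holds throughout), or 12.9 and 1.36 CPM. The counting intervals of those reads, before library scaling, were 276 to 347 and 25.2 to 49.8. The ratio was 9.37 (interval 6.71 to 13.8), the highest of the 10462 genes whose mean level reached 1 CPM. Rmrp had 169 and 25 reads, or 7.04 and 0.945 CPM, with count intervals of 144 to 196 and 16.2 to 36.9 before scaling. Its ratio was 7.32 (4.88 to 11.8), the second highest of those genes. Rmrp was under 1 CPM in wildtype, so it met that mean only through its level in the other library.

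**Figure D1:**
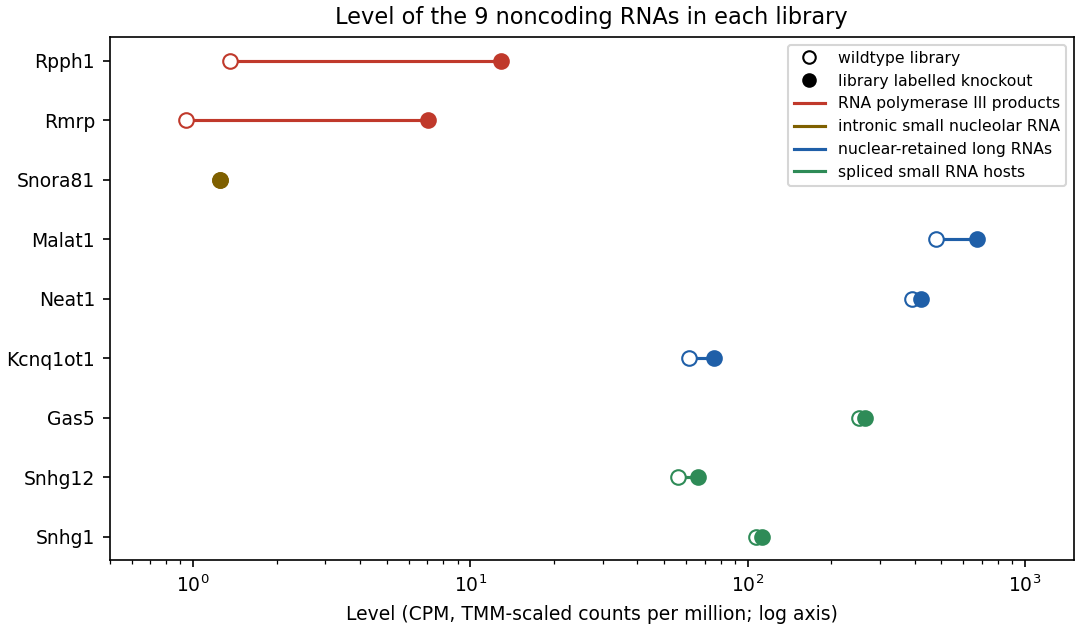
Level of each RNA in CPM (horizontal log axis) in the wildtype library (open points) and the library labelled knockout (filled points), coloured by class, 1 library each. Rpph1 (1.36 to 12.9 CPM) and Rmrp (0.945 to 7.04 CPM) are far apart between libraries, while the points of the other 7 RNAs lie close together and those of Snora81 coincide.

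Rpph1 and Rmrp moved by a like amount. The Rpph1 ratio divided by the Rmrp ratio was 1.27, with an interval of 0.707 to 2.26 that includes 1. Summed, the 2 RNAs stood at 20 CPM in the first library (95% Clopper-Pearson interval 18.3 to 21.9) and 2.3 CPM in the second (1.76 to 2.95), on raw totals. After library scaling their ratio was 8.65 (6.62 to 11.5). Only these 2 genes, of 10 with an interval wholly beyond 2-fold higher, had one wholly beyond 4-fold. The next in order were Pcdh7 (44 and 8 reads, ratio 5.75), Cntnap1 (44 and 9 reads, 5.15) and Ppp1r3e (105 and 23 reads, 4.94), picked for naming by that rank.

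The width of the ratios at low levels is the setting for these values. Of 2039 genes within 2-fold of the mean level of Rpph1, 95% had ratios between 0.69 and 1.54, and none but Rpph1 reached 9.37. Of 1901 genes within 2-fold of the mean level of Rmrp, 95% had ratios between 0.63 and 1.76, and 2, Rmrp and Rpph1, were as high as Rmrp. The mean levels of both RNAs rest mostly on the library labelled knockout, where they were high, so these ranks are descriptions. Per kilobase of RNA, Rpph1 stood at 40.5 CPM in the first library and 4.27 in the second, and Rmrp at 26 and 3.49. Snora81, of similar length, stood at 7.02 and 7.01 per kilobase, so the 3 short RNAs were closer in level in the wildtype library than in the other.

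The background of the calls was read from all 10462 genes. A gene was called when its ratio reached 1.5-fold and its interval did not include 1, which held for 2.48% of genes in the higher direction and 1.5% in the lower. Of the 9 RNAs, 2 were called higher (Rpph1 and Rmrp), 0 lower, and 7 neither. By a stricter rule, 2-fold or more with 10 CPM in the higher library, 0.0956% of 7324 genes were called higher, and 1 of the 9 RNAs was, Rpph1. Rmrp missed that rule on level alone, at 7.04 CPM. The interval lay above 1 for 16.2% of genes and below 1 for 19.5%, against 7 and 0 of the 9 RNAs, while those of Snora81 and Snhg1 included 1 (8 of the 9 lay above 1 under 2 other scalings, which move Snhg1). The Rpph1 ratio chose the group, so nothing is read from these shares.

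**Figure D2:**
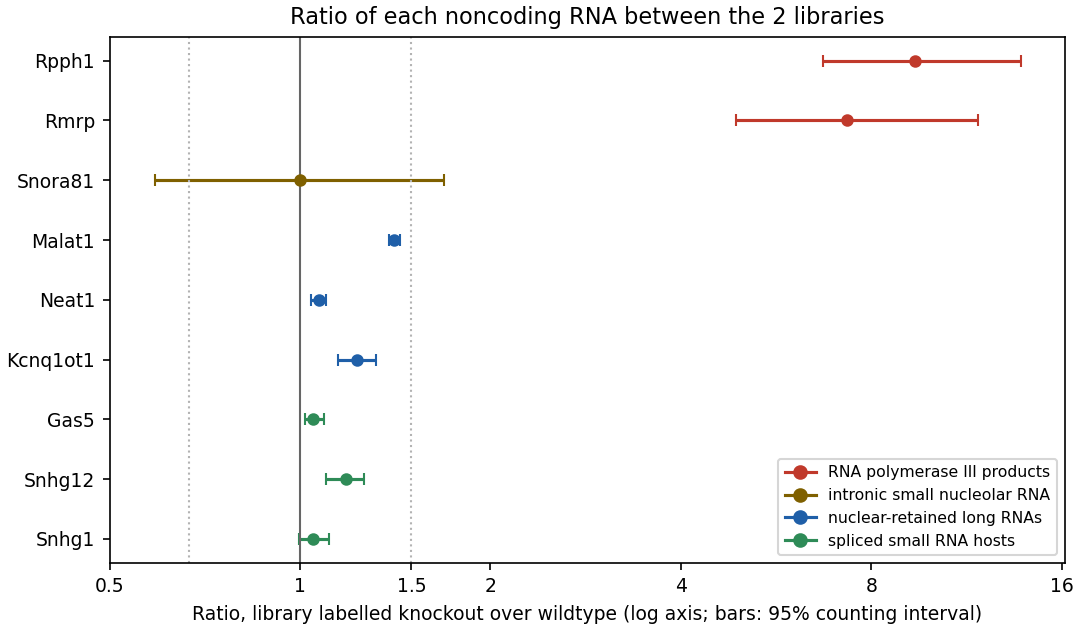
Ratio of the library labelled knockout over the wildtype library for each RNA (horizontal log axis), with 95% counting intervals as bars and dotted lines at 1.5-fold in either direction. Rpph1 (9.37) and Rmrp (7.32) lie far to the right, Malat1 (1.41), Kcnq1ot1 (1.23) and Snhg12 (1.18) lie above 1, and Snora81 and Snhg1 have intervals that include 1.

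Genes that resemble Rpph1 were sparse. The RNase P RNA-like copy Rprl2 had 24 and 7 reads, a ratio of 3.59 (1.58 to 10.4) at a mean of 0.632 CPM, below the level filter. Rprl3 had 3 and 1 reads and Rprl1 had 2 and 0, too few to give a direction. In an alignment of 257 columns, Rprl2 is identical to Rpph1 at 221 (86%) with a longest identical run of 32 bases, so a read shorter than such a run can fit both. The values for Rprl1 and Rprl3 are 216 (84%, longest run 27) and 222 (86.4%, longest run 37). Rmrp is identical to Rpph1 at 126 of 218 columns (57.8%) and shares no run longer than 9 bases, so reads of the 2 called RNAs are separable by sequence. Relative to Rpph1, the Rprl2 ratio was 0.399 (0.153 to 1.18). Of the other RNA polymerase III transcripts searched by symbol, Vaultrc5, a vault RNA, had 2 and 3 reads, and 10 symbols were listed in neither library.

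Genes overlapping or next to the 2 RNAs did not share their ratios. Ccnb1ip1, whose exon overlaps Rpph1, had 181 and 303 reads, a level 1.52-fold lower (1.26 to 1.84), the opposite direction to Rpph1. Parp2, a DNA repair enzyme gene that starts 73 bases from Rpph1 on the other strand, had 1543 and 1973 reads, 1.16-fold lower. Ccdc107, opposite Rmrp, had 611 and 680 reads and a ratio of 0.99 (0.886 to 1.11). The sources used here do not say how reads in the overlaps were assigned.

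The protein partners of the 2 RNAs did not move as they did. All 11 listed proteins of RNase P and RNase MRP were measured, 0 were called in either direction, and their median log2 ratio was 0.00 against -0.01 for all genes. Pop5, a shared subunit, had the largest ratio at 1.17 (1.10 to 1.26), from 1715 and 1610 reads. Rpp14, another subunit, was lowest at 0.875 (0.786 to 0.973), from 627 and 790 reads. Of 29 RNA polymerase III subunits and factors 28 were measured, 0 were called, and the median log2 ratio was -0.04. Polr3e, a polymerase subunit, had 93 and 72 reads and a ratio of 1.42 (1.04 to 1.96). Maf1, the repressor of the polymerase, had 181 and 241 reads and a ratio of 0.828 (0.679 to 1.01), an interval that includes 1. Polr3gl, a subunit with a close paralog, stood at 0.842 (0.746 to 0.951).

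Snora81 is as short as Rpph1 and Rmrp and likewise has no poly(A) tail, but did not share their difference. It had 30 and 33 reads, 1.25 CPM in each library, and a ratio of 1 (0.59 to 1.69). The Rmrp ratio divided by that of Snora81 was 7.36 (3.69 to 15). Its host Eif4a2, a translation initiation factor gene, had 3328 and 3744 reads and a ratio of 0.98 (0.935 to 1.03), and reads of an unspliced Eif4a2 transcript would cover Snora81 as well. The 12 other small nucleolar and small Cajal body RNAs listed held 27 and 40 reads together, a ratio of 0.744 with an interval of 0.439 to 1.24. For the counts of Snora81, a ratio as high as that of Rpph1 lay beyond the interval, while one below its bound of 1.69 did not. How many of these reads come from Snora81 itself is not known, so a change in it could be hidden by reads of Eif4a2.

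Malat1 had the largest ratio of the 6 long RNAs. It lies at chr19:5795690-5802672 (minus strand) and had 16170 and 12640 reads, or 674 and 478 CPM. The ratio was 1.41 (1.38 to 1.44), a log2 ratio of 0.50. It was the highest of 470 genes within 2-fold of its mean level, of which 95% lay between 0.86 and 1.15. Among the 2162 genes whose mean level reached 100 CPM, 3 had a ratio that high, Malat1 included. Per kilobase it stood at 96.5 and 68.4 CPM.

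Neat1, which lies next to Malat1 at chr19:5824708-5845478 on the same strand and 22035 bases away, did not share that difference. It had 10125 and 10408 reads, 422 and 393 CPM, and a ratio of 1.07 (1.04 to 1.10). The Malat1 ratio was 1.32 times that of Neat1 (1.27 to 1.36), more than counting error. Per kilobase Neat1 stood at 20.3 and 18.9 CPM, over the 20771 bases of its longest annotated form, and shorter forms were not counted apart. It is the scaffold RNA of paraspeckles, and of 14 paraspeckle proteins measured 0 were called, with a median log2 ratio of 0.03. Dazap1, an RNA-binding paraspeckle protein, had 155 and 141 reads and a ratio of 1.21 (0.958 to 1.53), and Tardbp, which encodes TDP-43, had 2731 and 3371 reads and stood at 0.893 (0.849 to 0.939).

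Frmd8 and Ltbp3, which lie near Malat1 and Neat1, had ratios of 0.956 (0.924 to 0.99) and 1.09 (0.847 to 1.39). The 3′ regions around the tract after which RNase P cuts are shown for both RNAs, since RNase P, built on Rpph1, cuts there. In Malat1 (chr19:5795918-5796029, bases 6644 to 6755 of 6983) the capitals mark the run of 12 A, at bases 6674 to 6685. In Neat1 (chr19:5824708-5824767) the last 60 bases of its longest annotated form are shown, and the capitals mark the 2 A runs at its end. The stretch after the Malat1 tract holds the tRNA-like RNA that RNase P frees, which the 298 annotated bases beyond the tract include. Counts per gene do not separate cut from uncut molecules.
Malat1 3′ region: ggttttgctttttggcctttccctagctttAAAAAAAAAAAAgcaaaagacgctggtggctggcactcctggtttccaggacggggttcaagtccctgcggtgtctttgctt
Neat1 3′ end: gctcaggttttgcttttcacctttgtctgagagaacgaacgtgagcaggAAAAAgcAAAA

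Kcnq1ot1 lay between Malat1 and Neat1. It spans chr7:143203458-143296549 (minus strand) as 1 unspliced exon of 93092 bases, and had 1818 and 1626 reads, 75.7 and 61.5 CPM. The ratio was 1.23 (1.15 to 1.32), and 55 of 3341 genes within 2-fold of its mean level were as high, itself included. Its ratio was 1.15 times that of Neat1 (1.07 to 1.24), and the Malat1 ratio was 1.14 times its own (1.07 to 1.23). Per kilobase it was the lowest of the 9, at 0.814 and 0.66 CPM. Kcnq1, the gene on the opposite strand, was listed in neither library. Among genes of the domain, the growth inhibitor Cdkn1c had 4 and 5 reads, Phlda2 had 3 and 1, and Slc22a18 had 0 and 1, too few to compare.

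The 3 nuclear-retained RNAs together had 28113 and 24674 reads, or 1174 and 930 CPM on raw totals. After library scaling their ratio was 1.26 (1.23 to 1.28). A list named other long nuclear RNAs held 18 symbols, not all of them of RNAs retained in the nucleus. Of these 8 were measured, with 1 called higher, 0 lower, and a median log2 ratio of 0.09. The 1 called was H19, an imprinted RNA not retained in the nucleus, with 195 and 78 reads and a ratio of 2.74 (2.11 to 3.63). The 7 others measured were not called. Mir17hg, the host of a microRNA cluster, had 1007 and 935 reads and a ratio of 1.19 (1.08 to 1.30). Jpx, with 63 and 52 reads, stood at 1.33 (0.91 to 1.97), and Pvt1, with 232 and 289, at 0.885 (0.741 to 1.06). The nuclear exosome and the adapters that feed it, which degrade nuclear RNA, had 19 measured members, 0 called, and a median log2 ratio of -0.05. Its lowest member was Dis3, a catalytic subunit, at 0.851 (0.80 to 0.905).

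**Figure D3:**
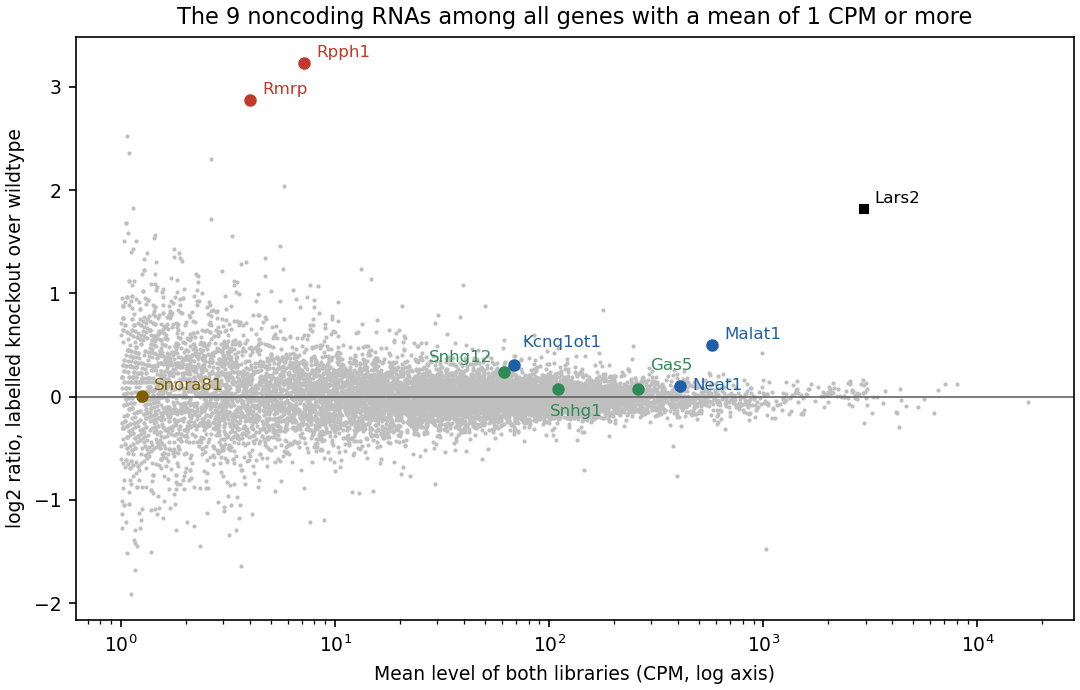
Log2 ratio (library labelled knockout over wildtype) against the mean level in CPM (log axis) for the 10462 genes whose mean reached 1 CPM, 1 grey point per gene, with the 9 RNAs coloured by class and Lars2 as a black square. Rpph1 (3.23) and Rmrp (2.87) stand above all other genes, and Malat1 (0.50) stands above the genes of like level, while the other abundant RNAs lie within the cloud.

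The spliced small RNA hosts had ratios from 1.05 to 1.18. Gas5, a host whose RNA builds up in growth-arrested cells, lies at chr1:161034422-161038539 (plus strand) and had 6371 and 6658 reads, 265 and 252 CPM. Its ratio was 1.05 (1.02 to 1.09). Snhg12 (chr4:132308623-132311024, plus strand) had 1587 and 1487 reads, 66.1 and 56.2 CPM, and a ratio of 1.18 (1.10 to 1.26). Snhg1 (chr19:8723475-8726443, plus strand) had 2703 and 2837 reads, 113 and 107 CPM, and a ratio of 1.05 (0.996 to 1.11), so its interval includes 1. With total counts as the scaling, or with the median gene set to 1, that interval lay just above 1 (lower bounds 1.0012 and 1.0055).

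Within the hosts, Snhg12 was set apart from the other two by a small amount. The Snhg12 ratio was 1.12 times that of Gas5 (1.03 to 1.21) and 1.12 times that of Snhg1 (1.02 to 1.22), while Gas5 and Snhg1 stood at 1 to each other (0.943 to 1.07). Summed, the 3 hosts stood at 445 and 414 CPM on raw totals, with a ratio of 1.07 (1.04 to 1.10) after library scaling. Malat1 was 1.2 times Snhg12 in ratio (1.11 to 1.29), and Kcnq1ot1 was 1.05 times it, with an interval of 0.949 to 1.16 that includes 1. The nuclear-retained RNAs and the hosts therefore form no clean division by ratio, since Neat1 lay with Gas5 and Snhg1, and Kcnq1ot1 with Snhg12. Per kilobase of annotated exons, Gas5 stood at 70.6 and 66.9 CPM, Snhg1 at 37.9 and 36.1, and Snhg12 at 27.5 and 23.4. Per kilobase, the order in the wildtype library was Malat1, Gas5, Snhg1, Snhg12, Neat1, Snora81, Rpph1, Rmrp, Kcnq1ot1, and in the other library Rpph1 stood above Snhg1, Snhg12 and Neat1. Over the longest transcript of each host in place of all exons (Gas5 104 and 98.5 CPM, Snhg12 43 and 36.5, Snhg1 41.3 and 39.3), Gas5 stood above Malat1 in both libraries, and Rpph1 below all 3 hosts. These orders are of counted reads. Rpph1, Rmrp and Snora81 have no poly(A) tail, and messenger RNA was enriched with oligo-dT beads. Their amounts relative to RNAs with a tail are therefore not known from these reads.

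Small RNAs processed from the hosts were nearly absent from the counts. Of 10 small RNAs annotated within Gas5 and 8 within Snhg1, 0 were listed. For any of them, 0 reads allow up to about 3 by a 1-sided 95% bound. Of 5 within Snhg12, Snora16a was listed with 3 reads in each library. Of 28 other host symbols, 15 were measured, 0 were called, and the median log2 ratio was -0.05. Snhg8 was the highest at 1.20 (1.09 to 1.32), from 876 and 803 reads. Tpt1, a highly translated protein gene, was the lowest at 0.816 (0.809 to 0.823), from 92717 and 125225 reads, and Snhg6 stood at 0.846 (0.747 to 0.957).

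The proteins that bind small nucleolar RNAs were all within 1.5-fold. Of 10 core proteins of box C/D and H/ACA particles measured, 0 were called, 7 had an interval below 1 and 1 above, and the median log2 ratio was -0.08. Of all 7215 genes at a mean level of at least 10 CPM, 1766 had an interval below 1 and 1316 above. Gar1 and Dkc1, both H/ACA proteins, had the same ratio of 0.849, from 2104 and 2733 reads and from 3123 and 4055 reads. Nop10, of the same particle, stood at 1.11 (1.04 to 1.19). Of 10 nonsense-mediated decay factors, which act on the spliced hosts, 1 was called higher, Upf1, the central helicase, with 91 and 64 reads and a ratio of 1.56 (1.13 to 2.19). Their median log2 ratio was 0.06, and Upf2 lay on the other side at 0.902 (0.842 to 0.966).

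The genes next to the hosts were within 1.5-fold. Slc3a2, which starts 105 bases from Snhg1, had 296 and 369 reads and a ratio of 0.884 (0.756 to 1.03). Trnau1ap, 738 bases from Snhg12, had 906 and 1110 reads and a ratio of 0.90 (0.823 to 0.983). Zbtb37, which overlaps Gas5 on the other strand, had 140 and 147 reads and a ratio of 1.05 (0.827 to 1.33).

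**Figure D4:**
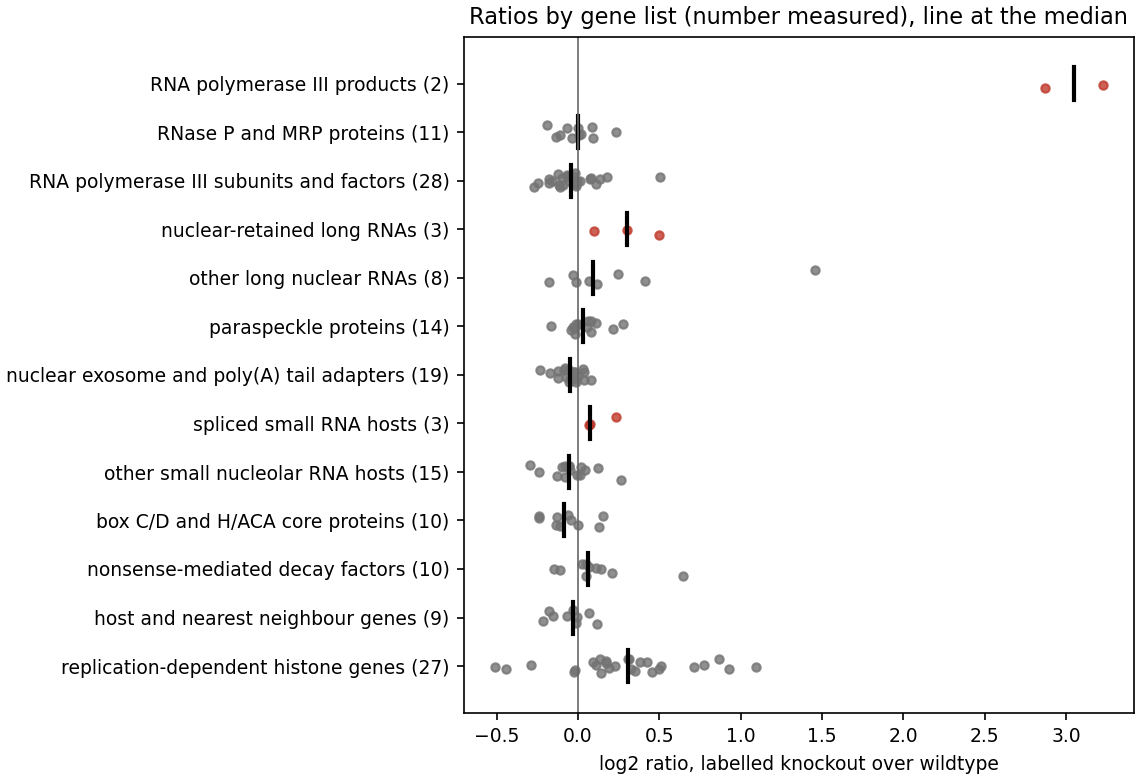
Log2 ratio of each measured gene (points, spread vertically at random for sight) by list, with the number measured in brackets and a black line at each median, the lists that hold the RNAs described here in red. The 2 RNA polymerase III products (median 3.05) stand apart, while the RNase P and MRP proteins (0.00) and the RNA polymerase III subunits and factors (-0.04) centre on 0.

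Set among all long noncoding genes, Malat1 was at one end. The annotation gave 55 long noncoding genes at a mean level of at least 10 CPM, of which 0 were called in either direction, 19 had an interval above 1 and 5 below, and the median log2 ratio was 0.05. Of the 7215 genes of any kind at that level, 23 were called higher and 17 lower, 1316 had an interval above 1 and 1766 below, and the median log2 ratio was -0.01. With only 10 reads required in the higher library, genes of low level enter. Then 15 of 112 lincRNA genes (13.4%) and 13 of 114 antisense genes (11.4%) were called higher, against 3.32% of protein-coding genes. Called lower were 6 lincRNA genes (5.36%) and 10 antisense genes (8.77%), against 2.03% of protein-coding genes. The 0 calls therefore hold for the 10 CPM limit only. Malat1 was the highest of the 55, Kcnq1ot1 was 5th, Snhg12 13th, Neat1 22nd, Gas5 23rd and Snhg1 25th. The genes at a mean level of 100 CPM or higher whose ratio was nearest that of Malat1, compared by 1 ratio each, were Lama5 (1.41), Mpp1 (1.38), Crebbp (1.34), Pisd-ps3 (1.34) and Lta (1.34).

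Beside the 2 called RNAs, Lars2 moved the same way. Lars2 encodes the mitochondrial leucyl tRNA synthetase, and in mouse its gene holds a stretch that resembles ribosomal RNA. It had 110368 and 34502 reads, a ratio of 3.53 (3.48 to 3.57), and was the gene nearest to Rpph1 among those with 10 CPM in the higher library. After it came Nov (2.35), Gzmb (2.21), Fam213a (2.12) and Akr1c18 (2.11). Of 7 symbols searched for ribosomal RNA and its look-alike, Lars2 alone was listed.

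Replication-dependent histone genes, whose messenger RNAs end in a stem-loop in place of a poly(A) tail, were chosen as a list after their values were seen. Of 27 measured, 4 were called higher and 0 lower, 22 had a ratio above 1, and the median log2 ratio was 0.30. Over all 10462 genes, 5037 had a ratio above 1, and at a mean from 1 to under 10 CPM, where most of the histone genes lie, 236 of 3247 genes were called higher and 140 lower. Hist1h2ab had 45 and 23 reads and a ratio of 2.13 (1.28 to 3.73), and Hist1h1e had 173 and 100 reads and a ratio of 1.90 (1.48 to 2.46). Hist1h1b (1.82) and Hist1h2bc (1.71) were the others called. The part that carried-over RNA without a tail has in the ratios of Rpph1 and Rmrp was not tested.

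Runs of A encoded in the RNA were compared across the 9, since an oligo-dT bead can hold such a run. For the hosts, runs and base content were read from the longest annotated transcript, of 25 for Gas5, 10 for Snhg12 and 18 for Snhg1. Counts per gene do not say which form was present. The longest run was 41 bases in Kcnq1ot1, 12 in Malat1 and in Snhg12, 7 in Neat1, 5 in Gas5 and in Snhg1, 4 in Snora81, 3 in Rmrp and 2 in Rpph1. The 3 RNAs with a run of 12 or more had ratios of 1.41 (Malat1), 1.23 (Kcnq1ot1) and 1.18 (Snhg12), the highest after the 2 called RNAs. Rpph1 and Rmrp, with the shortest runs, had the highest ratios, and they were also the richest in G and C, at 67.1% and 64.2% against 38.8% to 47.6% in the other 7. These are descriptions of 9 RNAs that also differ in length and level. Whether such runs have a part in the ratios was not tested.

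CREB binds the cAMP response element, so promoters were searched for its full site TGACGTCA and the shorter sites TGACG and CGTCA, on both strands, with the shorter sites also counted inside a full site. Of 32851 promoters in the RefSeq table (GRCm38.p6, 250 bases before to 50 after a start), 1.79% held a full site and 20.8% a shorter one. The table held 6 promoters for 5 of the 9 RNAs, and none for Rpph1, Rmrp, Neat1 or Snora81. Of these 5, Gas5 alone had a full site, in the second of its 2 promoters (chr1:161034916-161035215, plus strand). That promoter is shown with the site in capitals. Shorter sites numbered 3 in the Malat1 promoter, 2 in that of Snhg12, 1 in that of Kcnq1ot1 and 0 in that of Snhg1. A match of letters is not evidence of binding.
Gas5 promoter: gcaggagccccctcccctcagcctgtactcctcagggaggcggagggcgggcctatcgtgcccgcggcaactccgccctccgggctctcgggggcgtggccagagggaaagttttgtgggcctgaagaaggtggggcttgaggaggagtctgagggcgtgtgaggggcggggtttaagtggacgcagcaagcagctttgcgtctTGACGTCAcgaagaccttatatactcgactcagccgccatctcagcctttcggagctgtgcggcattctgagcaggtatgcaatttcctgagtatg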

How the data were processed

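RNA-seq of 2 mouse Th17 cell libraries was analysed, 1 per group, grouped by the labels. The deposited values are whole-number counts of uniquely assigned reads per gene symbol, per the file headers, with no normalization, and no sample column was left out. Tools and build in the submitters' processing notes are HTSeq, bcl2fastq and mm10. For the aligner, annotation and strand setting, nothing is stated in the sources used here. A gene not listed in a library was taken as 0 reads.

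Library totals were adjusted by the TMM factors (trimmed mean of M-values) of edgeR 4.0.16 in R 4.3.3. Ratios were formed after adding 0.5 reads, scaled to library size. Each has an exact conditional binomial (Clopper-Pearson) 95% interval, and ratios of 2 ratios have an exact conditional odds ratio interval. Amplified reads are not independent molecules, so the intervals cover counting error only. With 1 library per group no test could be fitted. Genes entered at a mean of 1 CPM or more. Per-kilobase levels divide CPM by the annotated exon length. Positions, gene types and RNA sequences are from GENCODE on GRCm38, matched by symbol. The ratio and interval code was tested on simulated data. Python 3.11.15, numpy 2.4.6, pandas 2.3.3, scipy 1.17.1, Biopython 1.88 and matplotlib 3.10.9 were used, with DESeq2 1.42.0 for size factors as an alternative.

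The members, gene lists and rules were chosen with earlier results of these data known. The genes named are the 9 RNAs, their hosts and nearest neighbours, the up to 4 measured genes of each list farthest from a ratio of 1, Creb1, Lars2, and the 5 genes nearest to Rpph1 and to Malat1. Ccnb1ip1, Pcdh7, Cntnap1, Ppp1r3e, Rprl1, Rprl3, Vaultrc5, Snora16a, Kcnq1, Cdkn1c, Phlda2, Slc22a18 and the histone genes were named after their values were seen. For 1 neighbouring gene, which falls under the naming rule, the values were left out.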

Additional observations from a re-analysis of the deposited data

How the results depend on the processing

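The ratios of the 9 RNAs kept their direction and stayed within their counting intervals under total counts, DESeq2 size factors, upper quartile scaling, a median ratio of 1, 5 reads in place of 0.5 as the prior count, the wildtype library thinned to the other total and, chosen after seeing the data, totals without Lars2. Rpph1 ranged from 8.41 to 9.81, Rmrp from 6.33 to 7.39 and Malat1 from 1.41 to 1.42. Under total counts and under a median ratio of 1, the interval of Snhg1 moved above 1, so that 8 of the 9 RNAs had an interval above 1 in place of 7. Adding the RNase P RNA-like copies to Rpph1 and Rmrp, also chosen after seeing the data, gave a summed log2 ratio of 3.02 against 3.11. With a mean of 10 CPM required, which by construction removes Rpph1 and Rmrp, 0 of the 9 RNAs were called by either rule. The calls in the list of other long nuclear RNAs (1, H19), nonsense-mediated decay factors (1) and histone genes (4) also went to 0. With 1 CPM in place of 10 in the higher library, 2 of the 9 RNAs passed the 2-fold rule. Thinning gave 1 call among the RNA polymerase III subunits and factors in place of 0. Over the longest annotated transcript, the mean per-kilobase level was 101 CPM for Gas5 (68.8 over all exons), 39.8 for Snhg12 (25.5) and 40.3 for Snhg1 (37.0). With 30 reads in place of 10 in the higher library, 2.48% of protein-coding rows were called higher in place of 3.32%. No replicate could be left out with 1 library per group. No paired analysis was possible because each group has 1 library. Depth limits the short RNAs most, and Snora81, the other small nucleolar RNAs and the RNase P RNA-like copies each rest on fewer than 40 reads per library. The wildtype counts of Rpph1 (36 reads) and Rmrp (25 reads), which enter their ratios, are also under 40.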
